A study of Drosophila melanogaster with 6 samples.

Results

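Translation initiation and elongation factors are the proteins that bring ribosomes to messenger RNAs and move them along the coding sequence. In gene-level counts from Drosophila melanogaster eye-antennal imaginal discs, 34 of 16727 listed genes carry a symbol of this kind, which is eIF (without eIF6, a factor of ribosome assembly), Ef1, eEF or EF2. By symbol, 28 are initiation factors and 6 are elongation factors. Of the 34, 29 had enough counts to be tested, which were all 6 elongation factors and 23 initiation factors, and the other 5 are members of the eIF4E family.

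Discs were taken from y w; +/+; +/+ larvae at day 5 or day 11 after egg laying, with 3 libraries per day and at least 30 discs in each. All larvae were kept at 25 °C on food made from the yeast YPH erg2∆::TRP1, which lacks the hormone precursors needed for pupation, so that they stay larvae. The labels call the discs growing at day 5 and done growing at day 11, and the comparison asks which transcripts differ between the days. Growth state, larval age and time on the food change together between the groups and cannot be told apart. The labels do not state that replicate libraries are independent cultures, and every p-value below then reflects variation among these samples, which may be technical. In whole discs, fewer cells of a type and less RNA per cell cannot be told apart either.

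Initiation begins when eIF2, loaded with GTP and the initiator tRNA, joins the small ribosomal subunit together with eIF1, eIF1A, eIF3 and eIF5. The cap-binding protein eIF4E, the scaffold eIF4G and the helicase eIF4A recruit this complex to the 5′ end of the messenger RNA, and it then scans to the start codon. In elongation, eEF1A delivers aminoacyl-tRNA to the ribosome, the eEF1B complex reloads eEF1A with GTP, and eEF2 moves the ribosome to the next codon. Growing tissues need much of this machinery, and initiation is the step that nutrient and stress signals mainly regulate.

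Library totals ran from 6542782 to 7950251 counts on day 5 and from 7670180 to 9049513 on day 11. The RNAs CR40469 and CR34335 together took 14.5 to 19.0% of the counts at day 5 and 26.3, 40.8 and 39.6% in day 11 replicates 1, 2 and 3, and the way libraries are scaled to each other changes the balance of calls. With TMM scaling 1533 of 8010 tested genes were higher and 1432 lower, with total counts 864 and 2207, and with total counts without these RNAs 1838 and 1139. Levels are given as CPM, the count of a gene relative to its TMM-scaled library total, and are not divided by length because the tags come from the 3′ end. All 10 eye-antennal disc markers had counts, and their summed level was 2652 to 2760 CPM at day 5 and 2807, 2142 and 2132 CPM at day 11. Most of that sum was hth (1785 ± 81.1 and 1670 ± 203 CPM, SD, n = 3, not called), and 4 of the 10 markers fell, with log2 fold changes of -2.99 for ato, -2.54 for dac, -1.49 for eya and -0.90 for ey. Markers of other tissues also moved. The sum of 6 salivary gland markers was 4.93 to 17.3 CPM at day 5 and 103 to 1223 CPM at day 11, with 2 of 6 higher. The sum of 4 haemocyte markers was 18.9 to 31.0 and 25.3 to 126 CPM, with 2 of 4 higher. Of the muscle markers 1 of 3 was lower (157 to 475 CPM in sum at day 5, 79.8 to 126 CPM at day 11), and of the glial markers 1 of 3 was higher (83.1 to 141 CPM, then 97.9 to 129 CPM). Fat body markers summed to between 56.3 and 515 CPM at day 5 and between 68.0 and 842 CPM at day 11, those of brain to at most 15.9 CPM and those of trachea to at most 2.46 CPM in any library. The germ line genes nos and bam were at 0. The part of these tissues in the results on translation factors was not tested.

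The 6 elongation factors found by symbol all differed between the days, while most initiation factors did not pass the test. Of 6 elongation factors, 5 fell and 1 rose, with a median log2 fold change (day 11 over day 5) of -0.42. Among 23 tested initiation factors, 5 fell and 0 rose, with a median of 0.01. Across the 8010 genes tested, 19.1% were higher, 17.9% were lower, 37.0% were called in either direction, and the median was -0.01. Calls are at an adjusted p below 0.05 in edgeR's quasi-likelihood test with Benjamini-Hochberg adjustment over all genes tested. For the count of 0 initiation factors higher, 1 had an unadjusted p under 0.05, and DESeq2 and limma-voom each called 0.

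**Figure D1:**
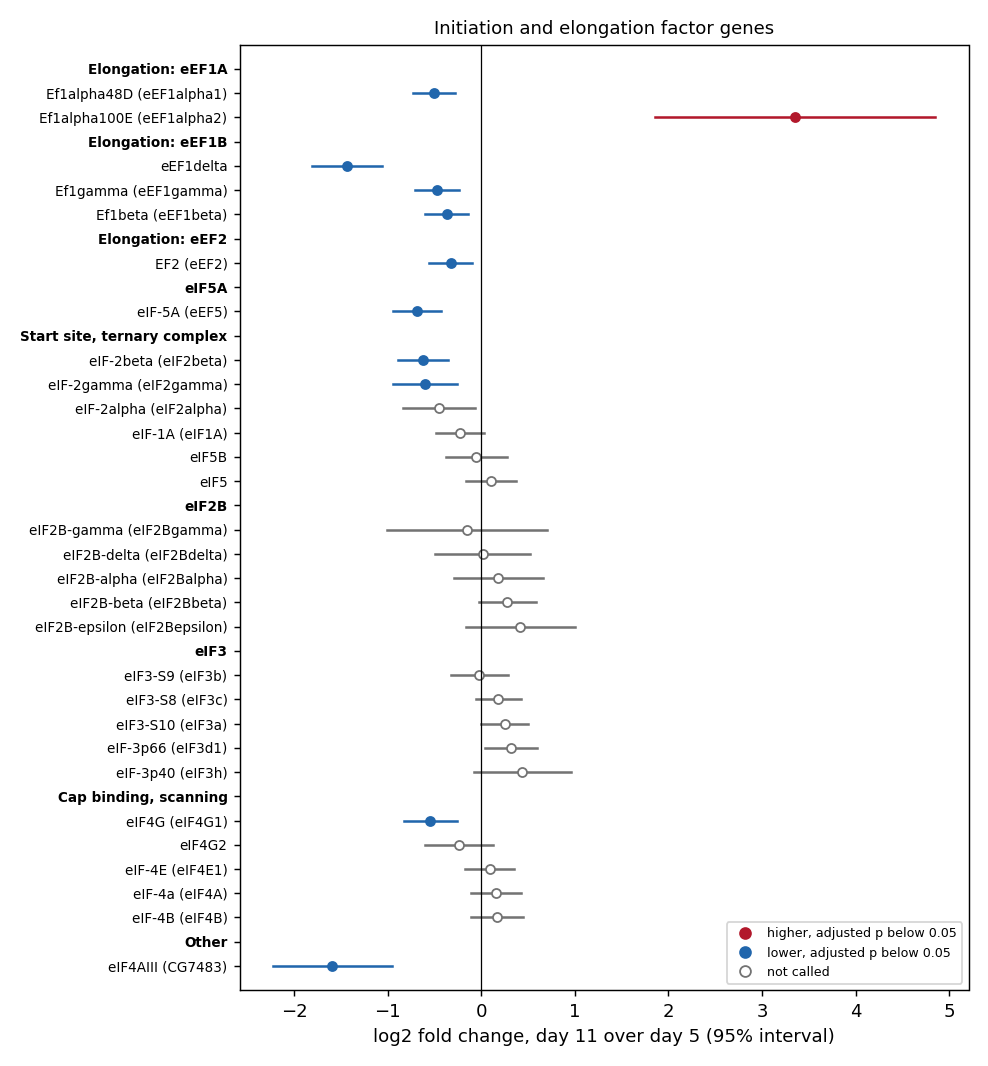
The log2 fold change of each tested factor, day 11 over day 5, is drawn as a point with its 95% interval, grouped by role, with called factors in colour. The elongation factors lie below 0 except Ef1alpha100E at 3.35, while the initiation factors spread on both sides of 0, from eIF4AIII at -1.59 to eIF-3p40 at 0.44.

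The eEF1A genes moved in opposite directions. Ef1alpha48D (now eEF1alpha1), which encodes the main eEF1A of fly tissues, had 5678, 5794 and 5579.5 CPM at day 5 and 3801, 4033 and 4182 CPM at day 11. It had the highest level of all 34 genes on both days, and every day 11 library lay below every day 5 library. The mean went from 5684 ± 107 CPM (SD, n = 3) at day 5 to 4005 ± 192 CPM (SD, n = 3) at day 11. In edgeR's test the log2 fold change was -0.50, with SE 0.10 and an adjusted p of 0.00297.

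Ef1alpha100E (now eEF1alpha2), on chr3R:31738468-31743306 of the release 6 genome, encodes the second eEF1A, which is known in flies for a restricted expression that peaks in the pupa. It had 24.8, 16.8 and 41.7 CPM at day 5 and 469, 169.8 and 211 CPM at day 11. The groups did not overlap, and the spread at day 11 came mainly from replicate 1, which lay far above the other libraries. The level rose 10.2-fold (95% interval 3.61 to 28.9), a log2 fold change of 3.35 (SE 0.58) with an adjusted p of 0.00995 in edgeR's test. It stayed called under all 18 alternative settings tried, with log2 fold changes from 2.78, without day 11 replicate 1, to 3.77, without day 5 replicate 3.

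Ef1alpha100E nevertheless remained the minor gene of the pair. Its share of the counts of both eEF1A genes was 0.436, 0.290 and 0.742% in the day 5 libraries. At day 11 it was 11.0% in replicate 1 (95% Wilson interval 10.7 to 11.3%), 4.04% in replicate 2 (3.81 to 4.28%) and 4.81% in replicate 3 (4.57 to 5.05%), where the intervals cover counting error only. The summed level of the pair was 5711 ± 95.02 CPM (SD, n = 3) at day 5 and 4289 ± 96.2 CPM at day 11, or 0.751 times the day 5 level. The sources used here do not state how reads that match both genes were counted.

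**Figure D2:**
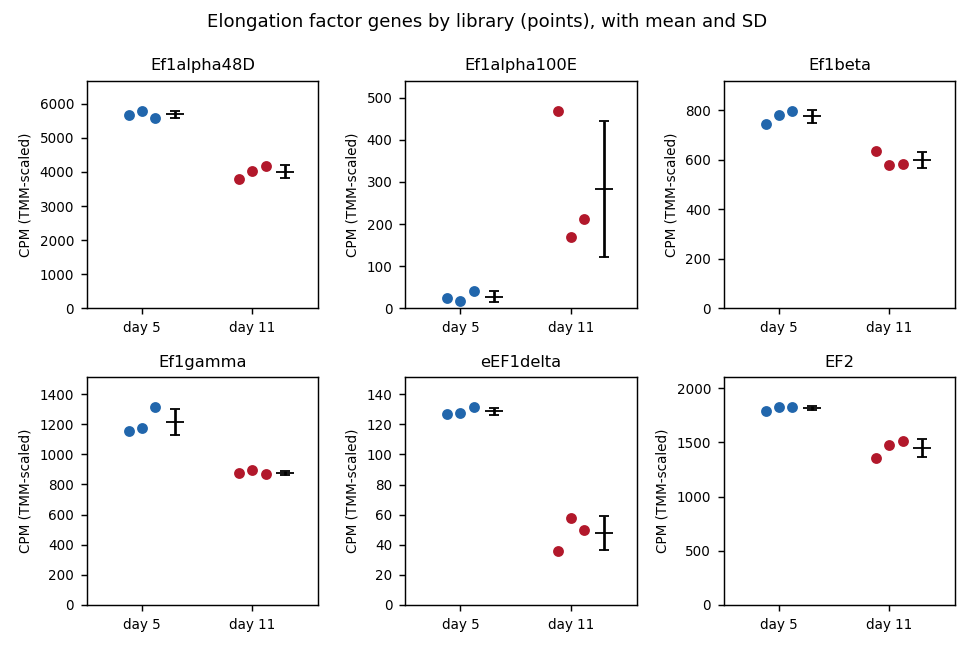
CPM of each elongation factor, with 1 point per library and the mean ± SD (n = 3) beside the points. In every panel the days separate, with day 11 below day 5 except for Ef1alpha100E, whose day 11 libraries range from 169.8 to 469 CPM.

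The 3 subunits of eEF1B, the exchange factor that returns eEF1A to its GTP-bound form, all fell. The largest change was in eEF1delta, a catalytic subunit, with 127, 128 and 131 CPM at day 5 and 35.8, 57.9 and 49.5 CPM at day 11. The day 5 libraries lay close together, far above the day 11 libraries, with means of 129 ± 2.47 and 47.7 ± 11.1 CPM (SD, n = 3). The log2 fold change was -1.43 (SE 0.17, adjusted p = 8.62e-05 in edgeR's test).

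Ef1gamma, the structural subunit, had 1158, 1175 and 1314 CPM at day 5 and 875, 893 and 867 CPM at day 11. Its groups were apart, and the log2 fold change was -0.47 (SE 0.11, adjusted p = 0.00534 in edgeR's test). Ef1beta, the other catalytic subunit, had 745, 782 and 798 CPM against 636, 579 and 583 CPM. Its fall was smaller, with a log2 fold change of -0.37 (SE 0.11, adjusted p = 0.0179 in edgeR's test). Side by side, eEF1delta went from 129 CPM beside 775 ± 27.3 CPM of Ef1beta to 47.7 CPM beside 599 ± 32.0 CPM. The difference between these subunits' fold changes was not tested.

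EF2 (eEF2, chr2L:21677913-21682164) encodes the GTPase that drives translocation. Its level was 1794, 1823 and 1826 CPM at day 5 and 1357, 1475 and 1513 CPM at day 11. The groups did not overlap, and the log2 fold change of -0.32 (SE 0.11) was the smallest among the elongation factors, with an adjusted p of 0.0300 in edgeR's test.

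Ef1beta and EF2 were close to the threshold. Without day 11 replicate 3, day 5 replicate 2 or day 5 replicate 3, and when libraries were scaled to total counts without CR40469 and CR34335, neither passed and 3 elongation factors were lower instead of 5. EF2 alone also missed the threshold without day 11 replicate 2 or day 5 replicate 1. The other 4 elongation factors kept their call in all 18 settings, and all 6 kept their direction.

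The initiation factors that fell belong to several steps. In the ternary complex, eIF2 has an α subunit that is the target of stress kinases, a β subunit that binds eIF5, and a γ subunit that binds GTP and the initiator tRNA. eIF-2beta had 356, 384 and 441 CPM at day 5 and 267, 246 and 255 CPM at day 11. All day 11 libraries were lower, and its log2 fold change was -0.62 (SE 0.12, adjusted p = 0.00218 in edgeR's test). eIF-2gamma had 92.9, 94.7 and 95.6 CPM against 50.1, 61.6 and 75.5 CPM. It fell by 0.60 on the log2 scale (SE 0.16, adjusted p = 0.0111 in edgeR's test), and its exons overlap those of Su(var)3-9 on the same strand, so the counts may hold reads of both. Exons of eIF4G2 and eIF5 overlap those of CG33111 and CG46312 on the same strand. Exons of eIF-2beta overlap ver on the other strand, as those of eIF-5A do CR44814 and those of eIF4AIII do Coq2. Other-strand overlaps also exist for eIF-2alpha (rngo), eIF-3p40 (senju), eIF-1A (CG14312) and each eIF2B gene. Without a stated strand setting such reads cannot be told apart.

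The third subunit, eIF-2alpha, pointed the same way without passing. It had 128, 149 and 121 CPM at day 5 and 72.2, 118 and 101 CPM at day 11, with day 11 replicate 2 just under the lowest day 5 library. Its log2 fold change was -0.45 (95% interval -0.84 to -0.07, adjusted p = 0.0624 in edgeR's test), and it was called in 6 of the 18 other settings. The remaining factors of start site choice gave log2 fold changes of -0.23 for eIF-1A, -0.05 for eIF5B, the GTPase of subunit joining, and 0.11 for eIF5, which triggers GTP hydrolysis by eIF2, with none called.

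None of the 5 genes of eIF2B, which reloads eIF2 with GTP, was called by edgeR, DESeq2 or limma-voom, and 0 had an unadjusted p under 0.05. Their log2 fold changes were -0.15 for the γ, 0.01 for the δ, 0.18 for the α, 0.28 for the β and 0.42 for the ε subunit. The widest interval, that of the γ subunit, ran from -1.01 to 0.71, so for this subunit sizeable changes in either direction are not excluded. The interval of the β subunit ran from -0.03 to 0.59.

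The cap-binding complex changed in its scaffold and not detectably in its other parts. eIF4G (eIF4G1, chr4:915297-930715), which bridges the cap-binding protein, the helicase and the ribosome-bound eIF3, had 348, 323 and 312 CPM at day 5 and 195, 227 and 252 CPM at day 11. The groups were apart, and the mean went from 328 ± 18.5 to 225 ± 28.2 CPM (SD, n = 3). The log2 fold change was -0.54 (SE 0.13, adjusted p = 0.0062 in edgeR's test), and the call held in all 18 settings.

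eIF-4E, the cap-binding protein itself, had 172, 174 and 191 CPM at day 5 and 176, 199 and 195 CPM at day 11. The groups overlapped, and the log2 fold change of 0.09 had a 95% interval from -0.17 to 0.35 (adjusted p = 0.597 in edgeR's test). eIF-4a, the scanning helicase and the most abundant initiation factor in these discs, had 2820.2, 3126 and 3526 CPM against 3531, 3186 and 3858 CPM, which also overlapped (log2 fold change 0.16, interval -0.11 to 0.43). For eIF-4B, which assists the helicase, the log2 fold change was 0.17, with an interval between -0.11 and 0.44. With total counts the 3 point estimates were below 0, at -0.19 for eIF-4E, -0.11 for eIF-4a and -0.10 for eIF-4B, again without a call.

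eIF4G2, a second eIF4G gene known for its function in the male germ line, had 103, 84.7 and 78.6 CPM at day 5 and 89.9, 61.4 and 74.0 CPM at day 11. Its groups overlapped and it did not pass (log2 fold change -0.24, SE 0.17, adjusted p = 0.285 in edgeR's test). Of the eIF4E family, eIF4E-3, eIF4E-4, eIF4E-5, eIF4E-6 and eIF4E-7 had too few counts to test. Their highest count in any library was 12, for eIF4E-4, which had 0 counts in all 3 day 5 libraries and 0, 11 and 12 at day 11.

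**Figure D3:**
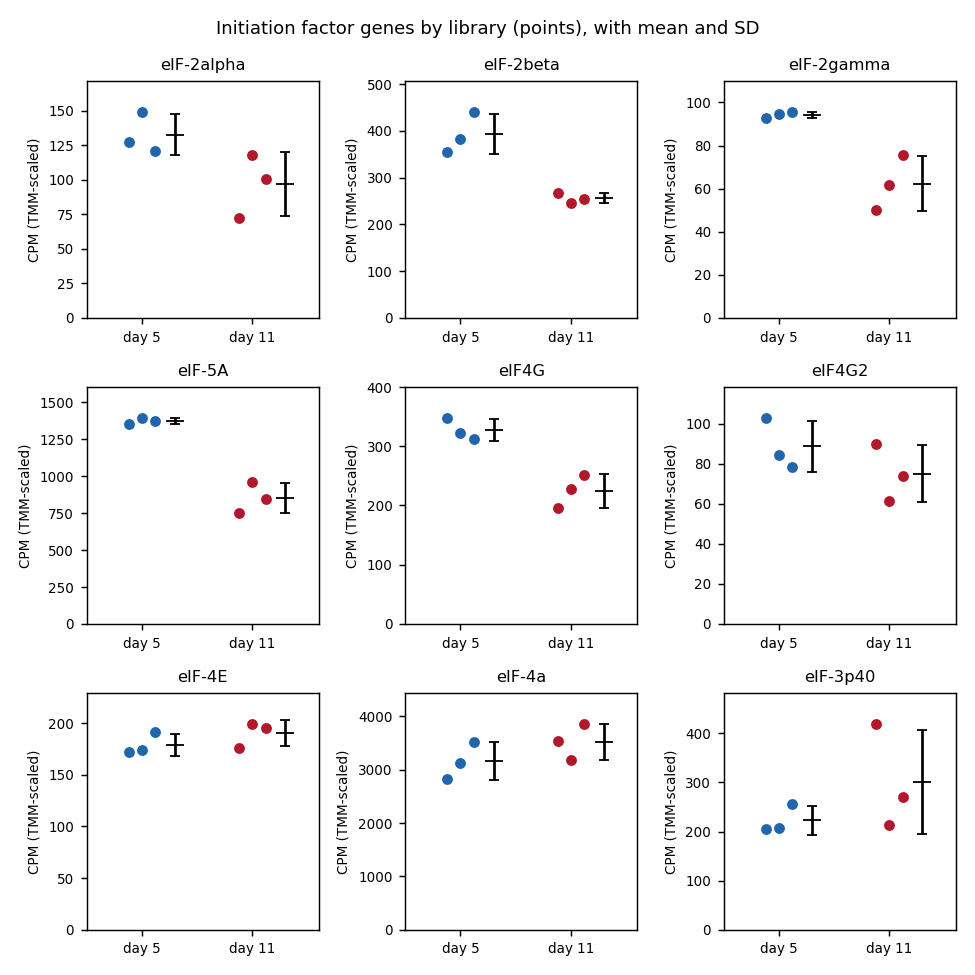
CPM of 9 initiation factors, with 1 point per library and the mean ± SD (n = 3) beside the points. The day 11 points lie below all day 5 points for the eIF2 subunits, eIF-5A and eIF4G, and mix with them for eIF4G2, eIF-4E, eIF-4a and eIF-3p40, where day 11 replicate 1 stands alone at 419 CPM.

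The other initiation symbols that fell encode proteins that act mostly outside initiation. eIF-5A, which helps ribosomes through difficult peptide bonds and is now named eEF5 in the fly, had 1353, 1396 and 1374 CPM at day 5 and 754, 962 and 843 CPM at day 11. Its groups were far apart, with a log2 fold change of -0.69 (SE 0.12, adjusted p = 0.000983 in edgeR's test). eIF4AIII, a helicase of the exon junction complex, was much rarer, with 14.1, 14.8 and 20.0 CPM against 3.53, 7.52 and 5.37 CPM. Its fall was the steepest among the 29 tested members, a log2 fold change of -1.59 (SE 0.29, adjusted p = 0.00137 in edgeR's test). Counted by function, eIF-5A joins the elongation factors, which then number 7 with 6 lower, and with eIF-5A and eIF4AIII set aside the initiation factors that fell are eIF-2beta, eIF-2gamma and eIF4G.

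The eIF3 members leaned the other way, with no call under the main settings. eIF3 is the large scaffold that holds the initiation complex on the small subunit, and 4 of its 5 members here had point estimates above 0, with a median log2 fold change of 0.25. eIF-3p66 (subunit d1) had 155, 144 and 177 CPM at day 5 and 211, 186 and 196 CPM at day 11, and eIF3-S10 (subunit a) had 171, 163 and 175 against 191, 205 and 210.3 CPM. In both genes every day 11 library was above every day 5 library, yet the adjusted p in edgeR's test was 0.0698 and 0.114. Both DESeq2 and limma-voom called 0 of the 5, and 1 had an unadjusted p under 0.05. With total counts the median of these 5 was -0.03, so the sign depends on the scaling. With the transcript length trend described further on removed, the median of these 5 was 0.09. With total counts without CR40469 and CR34335, eIF-3p66 and eIF3-S10 were called higher. eIF-3p66 also passed with a 5 CPM filter, eIF3-S10 without day 11 replicate 1, and eIF-3p40 without day 11 replicate 2. eIF-3p40 (subunit h) had 204, 208 and 256 CPM against 419, 214 and 271 CPM, where the high point estimate of 0.44 comes with overlapping groups and an interval from -0.08 to 0.96.

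Further eIF3 subunits are listed under other symbols, and some of those rose. Over all symbols 13 subunits were tested, with 3 higher and 0 lower, where 19.1% of all genes tested were higher and 17.9% lower. CG5642 (eIF3l) had 137, 131 and 142 CPM at day 5 and 275, 221 and 250.3 CPM at day 11, a log2 fold change of 0.86 (SE 0.13, adjusted p = 0.000359 in edgeR's test). CG9769 (eIF3f1) rose by 0.83 and Tango7 (eIF3m) by 0.63 on the same scale, with adjusted p-values of 0.000506 and 0.00236 in edgeR's test. The groups did not overlap for these 3 genes, and 10 of the 13 subunits did not pass. The count depended on the processing. With total count scaling 2 were higher, Tango7 did not pass, and the median of all 13 went from 0.18 to -0.09, while 5 were higher with the length trend removed (median 0.32) and 4 without day 11 replicate 1.

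Beside the eIF3 genes, 3 other factors under another symbol fell. Rbp2 (eIF4H1, a partner of the helicase eIF4A) had 528, 582 and 587 CPM at day 5 and 283, 281 and 261 CPM at day 11, a log2 fold change of -1.04 (SE 0.11, adjusted p = 4.32e-05 in edgeR's test). CG17737 (eIF1, a factor of start codon fidelity) had -0.54 and 4EHP (a cap-binding repressor of translation) had -0.43. Neither was firm, since CG17737 had -0.08 with the transcript length trend described further on removed, and 4EHP did not pass in 4 of the other settings, among them those without day 11 replicate 3, day 5 replicate 1 or day 5 replicate 2. Adding the 14 tested genes of this kind, all initiation factors but EfSec, gave 3 initiation factors higher and 8 lower in place of 0 and 5. EfSec, counted with the elongation factors, was not called (log2 fold change -0.21, adjusted p = 0.729 in edgeR's test). With it the median of the elongation factors was -0.37.

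Summed over members, elongation factor transcripts were lower in every day 11 library, and initiation factor transcripts overlapped between the days. The elongation sum was 9525.8, 9718.4 and 9690.2 CPM at day 5 and 7173.8, 7207.8 and 7405.5 CPM at day 11, so day 11 was 0.753 times day 5 and the groups did not overlap. The initiation sum was 7635.5, 7927.8 and 8479.3 CPM against 7894.8, 7283.3 and 8052.2 CPM, a ratio of 0.966 with overlapping groups. The counts of elongation factors over those of initiation factors, a ratio that needs no scaling between libraries, were 1.25, 1.23 and 1.14 at day 5 and 0.909, 0.990 and 0.920 at day 11. Ef1alpha48D carried most of the elongation sum, and eIF-4a and eIF-5A most of the initiation sum, so these totals reflect few genes. Without eIF-4a, the most abundant member, the initiation sum was 4815, 4801 and 4953 CPM at day 5 and 4363, 4097 and 4194 CPM at day 11, a ratio of 0.869 with groups that did not overlap. Without both eIF-4a and eIF-5A it was 3482 ± 88.3 CPM at day 5 and 3365 ± 237 CPM at day 11, and without Ef1alpha48D the elongation sum was 3961 ± 135 and 3257 ± 103 CPM.

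**Figure D4:**
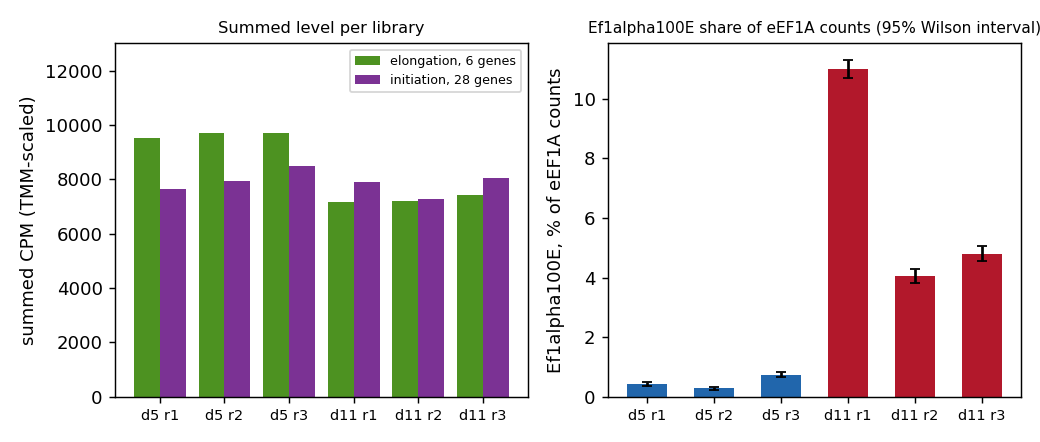
Left, summed CPM of elongation and of initiation factors in each library (d5 and d11 for the days, r for the replicate). Right, the percentage of eEF1A counts from Ef1alpha100E with its 95% Wilson interval. The elongation sums separate by day, the initiation sums overlap, and the Ef1alpha100E share is under 1% in every day 5 library and from 4.04 to 11.0% at day 11.

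Transcript length went along with the changes across the whole table. Among genes outside the members, the median log2 fold change was -0.47 in 898 genes with transcripts of up to 800 nt and 0.20 in 2302 genes with transcripts over 3000 nt. Ef1beta and eIF-5A are short, at 884.5 and 749.5 nt, and with this trend removed Ef1beta had a log2 fold change of -0.02 (adjusted p = 0.892 in edgeR's test) and eIF-5A -0.27 (adjusted p = 0.101 in edgeR's test). eEF1delta, at 887.5 nt, kept a log2 fold change of -1.09, and the counts of lower genes became 4 of 6 for elongation and stayed 5 of 23 for initiation, where eIF4G2 was then called in place of eIF-5A, and eIF2B-beta was called higher (0.43).

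Among genes that control initiation, several binding partners and kinases of the cap complex rose. Of 18 such genes 16 were tested, with 7 higher, 3 lower and a median log2 fold change of 0.34. Of all genes tested, 19.1% were higher and 17.9% lower, and this list was chosen with earlier results of these data known. Thor, the fly 4E-BP that binds eIF4E and blocks its contact with eIF4G, had 15.3, 13.6 and 14.7 CPM at day 5 and 279, 239.9 and 323 CPM at day 11. It rose 19.3-fold (95% interval 15.1 to 24.6) with an adjusted p of 2.87e-08 in edgeR's test. Its level of 280.4 ± 41.3 CPM at day 11 stood beside 190.2 ± 12.3 CPM of eIF-4E, whereas at day 5 it was 14.5 ± 0.874 beside 179 ± 10.4 CPM.

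Other genes that act on the cap-binding complex also rose. Lk6, the kinase that phosphorylates eIF4E, had 812, 712 and 771 CPM at day 5 and 2856, 2239.8 and 2443 CPM at day 11, a log2 fold change of 1.72. Paip2, an inhibitor of the poly(A)-binding protein, rose by 1.61, mxt, an eIF4E-binding protein, by 1.22, S6k, the ribosomal protein S6 kinase, by 1.02 and larp, an RNA-binding protein that acts on translation, by 0.98. Adjusted p-values of these 5 genes were between 2.67e-06 and 8.24e-05 in edgeR's test, and the groups did not overlap. The seventh gene was crc, the fly ATF4, with a log2 fold change of 0.41 (adjusted p = 0.0294 in edgeR's test). It did not pass with total counts, nor without day 11 replicate 3, day 5 replicate 1 or day 5 replicate 2.

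The regulators that fell were Fmr1, a translational repressor (-0.86), CG5941, the fly MCTS1 that helps reinitiation (-0.59), and bel, a DEAD-box helicase (-0.50). bel did not pass without day 11 replicate 3, and CG5941 did not with the length trend removed. pAbp, the poly(A)-binding protein that joins eIF4G, was not called, with a log2 fold change of 0.27 (adjusted p = 0.0994 in edgeR's test). The stress kinase PEK, which phosphorylates eIF-2alpha, and NAT1, an eIF4G relative, had log2 fold changes of 0.25 and 0.23 and were not called. Also uncalled were CG9099 (DENR) at -0.93, Tor at -0.81 and raptor at 0.52. Their adjusted p-values in edgeR's test were 0.165, 0.0581 and 0.147, and Tor did not pass in 11 of the 18 other settings.

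Some enzymes that modify these factors fell. Of 5 tested genes that modify eIF5A or eEF2, 3 fell and 0 rose, where 17.9% of all genes tested were lower and 19.1% higher. With the length trend removed 2 fell and 0 rose. DESeq2 and limma-voom also called 0 higher, and 0 had an unadjusted p under 0.05 with a rise. CG8005, deoxyhypusine synthase, which starts the hypusine modification of eIF5A, had 11.2, 11.4 and 13.0 CPM at day 5 and 5.34, 6.45 and 4.79 CPM at day 11 (log2 fold change -1.11, adjusted p = 0.00394 in edgeR's test). nero, the hydroxylase that completes it, had -0.76. It did not pass with the length trend removed and a block for replicate number (adjusted p = 0.0627 in edgeR's test). Dph5, a methyltransferase in the synthesis of diphthamide on eEF2, had -0.59 and did not pass with the length trend removed (adjusted p = 0.0738 in edgeR's test).

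**Figure D5:**
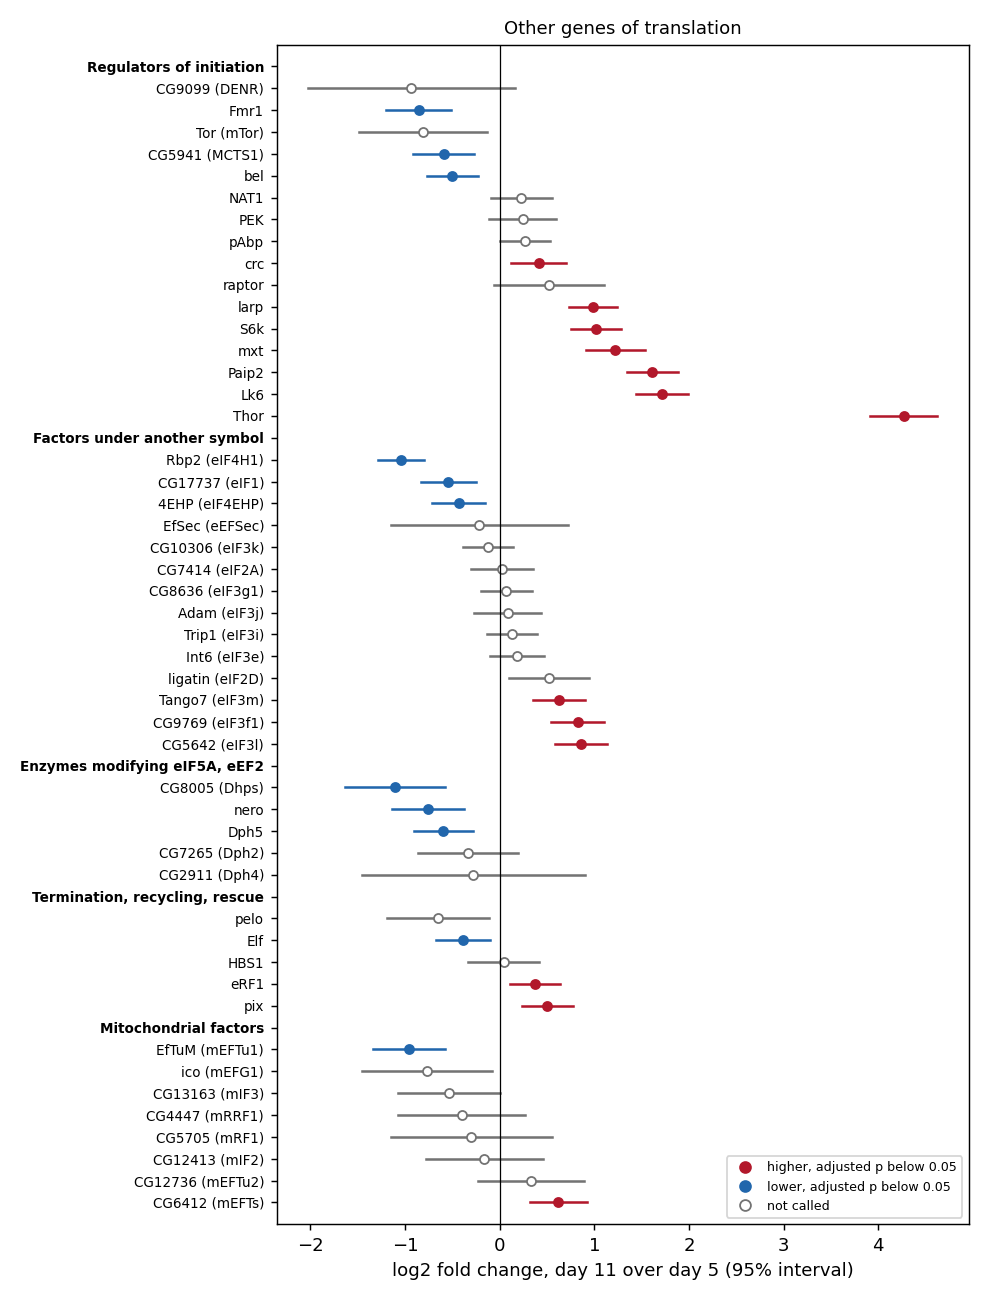
Log2 fold change with its 95% interval for factors listed under another symbol, regulators of initiation, modifying enzymes, termination factors and mitochondrial factors, with called genes in colour. Thor lies farthest to the right at 4.27, and the modifying enzymes all lie below 0.

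Of 5 termination, recycling and rescue genes 2 were higher and 1 lower, where 37.0% of all genes tested were called in either direction. pix, the ABCE1 protein that splits ribosomes after termination, rose by 0.51 and eRF1, which reads stop codons, by 0.38, and 1 of the 5 genes, listed under the symbol Elf, fell by 0.39. Of 8 tested mitochondrial factors 1 was higher and 1 lower, 6 point estimates were below 0 and the median was -0.35. With total counts 3 were lower and 0 higher. EfTuM, the mitochondrial counterpart of eEF1A, fell by 0.96, and CG6412, its exchange factor EF-Ts, rose by 0.62. With total counts pix, eRF1 and CG6412 did not pass, and eRF1 also did not without day 11 replicate 3 or any single day 5 library. The Elf call was lost in 8 of the 18 settings, among them the same 4 left-out libraries.

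For comparison, the cytosolic ribosomal protein genes, the other large set of the translation machinery, were lower in 62 of 85 tested genes and higher in 1, with a median log2 fold change of -0.54. Their median transcript length was 709 nt, and with the length trend removed 16 were lower and 6 higher. Of 18 aminoacyl-tRNA synthetase genes, which charge the tRNAs that eEF1A carries, 6 were lower and 2 higher, with a median of -0.15. Of all genes tested, 17.9% were lower and 19.1% higher, or 37.0% in either direction. The synthetase counts were 8 and 0 with total counts (median -0.44), 6 and 0 with the length trend removed, and 4 and 1 without day 11 replicate 1. Beside these stand the elongation factors with 5 of 6 lower and a median of -0.42, and the initiation factors with 5 of 23 lower and a median of 0.01. The order of the sets depends on the processing, since with the length trend removed the medians were -0.42 for elongation factors, -0.22 for the synthetases and -0.11 for the ribosomal proteins. The differences between these sets were not tested.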

How the data were processed

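Counts per gene were deposited by the authors for 3 libraries at each of 2 days, made per the labels from polyadenylated RNA with a QuantSeq 3′ kit. FastQC, cutadapt, STAR 2.6.1d and the build dm6 are named in the submitters' processing notes. Not given in the sources used here are the counting program, its annotation, its strand setting and how multiply matching reads were handled.

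From the deposited counts, edgeR 4.0.16 (R 4.3.3, limma 3.58.1) kept 8010 genes with filterByExpr, scaled with TMM and fitted a robust quasi-likelihood model without a replicate block (common biological coefficient of variation 0.211). p-values were adjusted by Benjamini-Hochberg over all genes tested, with a threshold of 0.05. Standard errors are the log2 fold change over the root of the F statistic. 3 counts in a library correspond to 0.332 to 0.459 CPM, and intervals cover counting error only where they are on shares. With 3 libraries per day, the smallest p of an exact two-sided permutation test would be 0.1. Libraries of a day differed beyond sampling noise (chi-square per degree of freedom from 8.45 to 86.7), so each counts once. In simulated counts for day 11 over day 5 (7873 genes fitted), 52.9% of 2-fold and 95.7% of 4-fold changes were recovered, and 9 of 153 calls were false.

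Symbols were matched to Ensembl's BDGP6 annotation, which is release 6 like dm6. 12512 matched a current symbol, 3996 a synonym of 1 gene, 81 a synonym left after other rows were matched (eIF4G among them) and 138 none. Transcript length is the median over annotated transcripts. Full values are given by rule for every elongation factor, for up to 3 called initiation factors per role and direction and for tested eIF4E and eIF4G genes. Other genes were named after their values were seen. The members and lists were chosen with earlier results of these data known. Alternatives covered scaling, filters, DESeq2 1.42.0, limma-voom, no robust shrinkage, the replicate block, the length trend (lowess, span 0.3) and each library left out. Figures were drawn with matplotlib 3.10.9.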

Additional observations from a re-analysis of the deposited data

How the results depend on the processing

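Of 521 results of single members under other settings, 492 stayed on the same side of the threshold, 15 passed only there and 14 passed no longer. No direction of a called value turned. Uncalled values could change sign, and eIF2B-delta kept its direction in only 10 of 18 settings. 8 of 11 called members were called in every setting. The initiation factors called higher, 0 as reported, were 1 with a 5 CPM filter, 1 with no filter, 2 with total counts without CR40469 and CR34335, 1 with the length trend removed, and 0 to 2 with one library left out. They were 3, with 8 lower, when factors under another symbol were added, an alternative chosen after seeing the data. Their median log2 fold change, 0.01 as reported, was 0.070 with a 5 CPM filter, 0.082 with no filter, -0.24 with total counts, 0.11 with total counts without those RNAs, -0.075 to 0.089 with one library left out and 0.077 with the added factors. The elongation factors called lower numbered 3 with total counts without those RNAs and 3 to 5 with one library left out, and their median was then -0.69 with total counts and -0.32 without those RNAs. Total counts moved the median of all genes to -0.28. With a replicate block 6 initiation and 5 elongation factors were lower. Deviations of libraries of the same number correlated at 0.05, 0.19 and -0.09, and those of different numbers at -0.23 to 0.17. These values cannot settle whether libraries of the same number share a batch or culture. All genes called were 2940 with the block against 2965, and 2202 without day 11 replicate 3.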
